A study of Homo sapiens with 12 samples.

Results

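The 35 genes described here are DNA repair and damage checkpoint genes, taken from a table of 36502 genes by their gene symbol. The list was chosen with earlier results of these data known. They fall into 5 roles: 13 genes of homologous recombination, 8 of the Fanconi pathway, 2 of mismatch repair, 7 of checkpoint signalling and break sensing, and 5 of end joining together with PARP1. All 35 were counted in all 12 libraries and all 35 are among the 17262 genes that passed the filter on low counts.

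DNA breaks are sensed by the MRE11-RAD50-NBN complex, which recruits the kinase ATM, while ATR is activated by single-stranded DNA through TOPBP1, and both kinases signal through CHEK1 and CHEK2. Breaks are rejoined directly by end joining, with the Ku proteins, DNA-PKcs and ligase IV, or copied from the sister chromatid by homologous recombination, in which BRCA1, PALB2 and BRCA2 act together. The Fanconi proteins unhook crosslinked strands, and mismatch repair corrects replication errors. Many genes of homologous recombination, the Fanconi pathway and mismatch repair are transcribed most in cells about to copy their DNA.

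The data are TruSeq RNA-seq libraries of HT1080, a human fibrosarcoma line. Each of the 2 clones carries a construct that binds adenine-methylated DNA, m6A-Tracer with GFP (the GFP clone) or m6A-Tracer-VP16, which adds a viral activation domain (the VP16 clone), and Dam-LaminB1, an adenine methyltransferase fused to a protein of the nuclear lamina. Each clone was grown in 3 conditions, with 2 libraries of each. In the tracer with Dam-LaminB1 condition, cells had 3 days of doxycycline at 50 ng/ml and then 24 hours without it and with 500 nM Shield1. The tracer condition was the same without Shield1, and uninduced cells had 4 days of doxycycline. All groups share the parental line, the Dam-LaminB1 construct and doxycycline, while the tracer construct differs between the clones. Each tracer construct is represented by a single clone, and no library of the parental line is among the 12. The 12 samples are numbered, and samples 1 to 6 carry the same 6 index sequences as samples 7 to 12, so that each of the 6 groups has 1 library in index set 1 and 1 in index set 2. The sources used here give neither what the sets stand for in culture or sequencing nor whether the paired libraries came from separate cultures, so the spread behind each p-value is that of these libraries and may be technical.

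Library totals were 18774905 to 24827396 counts, and the 35 genes together held 0.313% to 0.541% of a library, with 146 to 41309 counts per gene and library. Mesenchymal markers, led by VIM, summed to 6768 to 10570 CPM, counts scaled to a common library total, while the 10 epithelial markers, of which 2 passed the filter, summed to 3.37 to 16.0 CPM, blood markers to 0.876 to 3.87 CPM and neural markers to 9.36 to 18.1 CPM. Principal component 1 of all tested genes held 45.4% of the variance, and 2 libraries of set 1 stood apart on it, GFP tracer with Dam-LaminB1 at -87.0 and GFP tracer at -78.3, against -16.2 to 41.0 for the other 10. Differences between the index sets are also given without these 2 libraries, for each called gene and for the other genes described in full. The epithelial markers summed to 16.0 and 11.9 CPM in these 2 libraries, against 3.37 to 5.95 CPM in the other 10. Most of this was ESRP1, a splicing factor, with 10.7 and 6.77 CPM there against 0.089 to 0.378 CPM elsewhere. The adhesion genes EPCAM and CDH1 stayed at or below 0.651 CPM in all 12. CDH1 was highest in these 2 libraries, at 0.651 and 0.3435 CPM, against at most 0.3305 CPM elsewhere. EPCAM had 0.0814 and 0.2453 CPM there, against at most 0.1992 CPM elsewhere. The part of this in the levels of the 35 genes was not tested. In bulk RNA, fewer cells of a kind and less RNA per cell cannot be told apart.

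Per kilobase of exon, 3 genes of end joining were the most abundant of the 35. XRCC5 and XRCC6, which encode Ku80 and Ku70, averaged 188.7 and 157.3 CPM per kb over the 12 libraries, and PRKDC, which encodes DNA-PKcs, averaged 103.6 CPM per kb. PARP1, a sensor of nicked DNA that marks its surroundings with poly(ADP-ribose), followed at 81.9 CPM per kb, while LIG4, the ligase of end joining, averaged 5.99 CPM per kb. Next came TOPBP1 at 29.2 and NBN at 28.6 CPM per kb, then the mismatch reader MSH6 at 21.5 CPM per kb and FANCI, a subunit of the clamp that encircles DNA at a crosslink, at 21.2 CPM per kb. At the low end were RAD50 at 3.37, BRCA2 at 3.42, the helicase gene BRIP1 at 3.06 and the translocase gene FANCM at 3.03 CPM per kb. The genes of homologous recombination lay between BRIP1 and XRCC3, a gene of strand exchange, at 17.4 CPM per kb, all below the Ku genes, PRKDC and PARP1. The listed positions of 23 of the 35 genes overlap another gene, and since the strand setting of the counting is not given, reads of overlapping genes cannot be told apart. The listed PARP1 region overlaps 45 other genes, and PMS2, CHEK2 and PARP1 have copies by name in the table, PMS2 as many as 7.

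The promoters of 8 of the genes are shown because the genes differ in how their levels moved between libraries, described after them. Of the 29 genes with a promoter in the table used, which PRKDC is not among, BRCA2, ATM and ATR had the smallest p between the index sets, and FANCC, RAD50 and LIG4 had the largest. MSH6 and FANCA, which were chosen after their values were seen, were among the genes lowest in the 2 libraries that stood apart. Each sequence runs from 250 bases before to 50 bases after a gene's first listed start, from RefSeq on GRCh38.p14, written 5′ to 3′ on the gene's strand. Capitals mark matches on either strand to 4 words of the E2F site (TTTCCCGC, TTTCGCGC, TTTGCCGC and TTTGGCGC) and to the CCAAT box (CCAAT).
BRCA2 (chr13:32315258-32315557, plus strand): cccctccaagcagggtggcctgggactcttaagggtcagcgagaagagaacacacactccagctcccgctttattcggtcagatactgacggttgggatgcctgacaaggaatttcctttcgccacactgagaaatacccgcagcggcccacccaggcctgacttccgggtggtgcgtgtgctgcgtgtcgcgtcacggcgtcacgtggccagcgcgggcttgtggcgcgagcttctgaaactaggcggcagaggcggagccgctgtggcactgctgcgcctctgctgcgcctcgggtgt
ATM (chr11:108222817-108223116, plus strand): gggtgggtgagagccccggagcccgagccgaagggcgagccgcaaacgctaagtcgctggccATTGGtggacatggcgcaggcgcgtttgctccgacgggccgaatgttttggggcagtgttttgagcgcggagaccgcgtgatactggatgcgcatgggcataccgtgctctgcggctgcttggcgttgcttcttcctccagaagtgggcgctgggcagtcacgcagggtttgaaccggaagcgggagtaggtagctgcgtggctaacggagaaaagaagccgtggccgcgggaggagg
ATR (chr3:142578684-142578983, minus strand): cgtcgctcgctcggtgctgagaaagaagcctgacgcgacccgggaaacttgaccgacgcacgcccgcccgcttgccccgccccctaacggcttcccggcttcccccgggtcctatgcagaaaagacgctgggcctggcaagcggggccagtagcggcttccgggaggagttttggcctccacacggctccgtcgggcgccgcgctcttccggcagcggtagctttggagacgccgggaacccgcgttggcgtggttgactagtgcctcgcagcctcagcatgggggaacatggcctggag
MSH6 (chr2:47782895-47783194, plus strand): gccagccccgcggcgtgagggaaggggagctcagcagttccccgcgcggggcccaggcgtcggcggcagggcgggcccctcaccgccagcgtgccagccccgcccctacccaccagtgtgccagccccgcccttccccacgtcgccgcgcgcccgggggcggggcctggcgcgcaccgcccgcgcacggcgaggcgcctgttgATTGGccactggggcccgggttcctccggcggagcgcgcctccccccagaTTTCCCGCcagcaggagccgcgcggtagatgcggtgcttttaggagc
FANCA (chr16:89816598-89816897, minus strand): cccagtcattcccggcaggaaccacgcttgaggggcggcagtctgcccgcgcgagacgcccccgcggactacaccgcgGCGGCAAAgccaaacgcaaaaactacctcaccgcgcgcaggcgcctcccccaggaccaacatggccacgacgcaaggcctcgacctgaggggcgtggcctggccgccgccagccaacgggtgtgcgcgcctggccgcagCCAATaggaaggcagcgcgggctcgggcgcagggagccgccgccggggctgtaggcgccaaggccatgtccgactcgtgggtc
FANCC (chr9:95317660-95317959, minus strand): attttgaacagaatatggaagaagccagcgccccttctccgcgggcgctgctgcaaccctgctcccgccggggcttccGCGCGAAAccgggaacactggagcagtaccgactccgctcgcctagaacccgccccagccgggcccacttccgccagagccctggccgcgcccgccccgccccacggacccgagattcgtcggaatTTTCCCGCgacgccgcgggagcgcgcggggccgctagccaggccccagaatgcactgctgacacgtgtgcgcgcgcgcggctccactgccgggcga
RAD50 (chr5:132556727-132557026, plus strand): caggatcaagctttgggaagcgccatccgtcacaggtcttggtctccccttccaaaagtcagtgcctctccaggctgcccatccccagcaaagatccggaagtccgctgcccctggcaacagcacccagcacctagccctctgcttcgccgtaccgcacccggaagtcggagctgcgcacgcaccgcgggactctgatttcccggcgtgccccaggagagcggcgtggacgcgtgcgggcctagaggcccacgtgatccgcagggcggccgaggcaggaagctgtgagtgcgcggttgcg
LIG4 (chr13:108218300-108218599, minus strand): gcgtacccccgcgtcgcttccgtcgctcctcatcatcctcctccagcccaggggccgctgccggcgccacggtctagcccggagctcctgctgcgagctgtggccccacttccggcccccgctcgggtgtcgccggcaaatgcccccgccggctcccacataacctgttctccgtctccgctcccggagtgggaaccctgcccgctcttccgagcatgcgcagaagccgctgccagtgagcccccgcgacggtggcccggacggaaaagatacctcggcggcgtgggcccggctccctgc

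Of the 35 genes, 29 have a promoter in that table, and 10 of them have more than 1 listed start. An E2F word was found in 9 of the 29 promoters, against 3.33% of 27305 promoters of the same length. The 9 are XRCC2, EXO1, FANCA, FANCC, FANCD2, MSH6, PMS2, TOPBP1 and XRCC6, and the match lay at the start itself in EXO1 (base 4 after it), MSH6 (base 3), FANCD2 (base -2) and TOPBP1 (base -7). The CCAAT box was found in 13 of 29, against 35.7% of all promoters. The last motif searched, the CHR element (TTTGAA or TTTAAA, left in lower case above), was found in 4 of 29, against 24.3% of all promoters. Of the 18 genes that were lower by more than 1.5-fold in the GFP library of set 1 with tracer and Dam-LaminB1 than in the uninduced one, 16 have a promoter in the table, and 6 of these hold an E2F word. Of the other 17 genes, 13 have a promoter, and 3 of these hold one. A match is a match of letters and says nothing of binding.

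**Figure D1:**
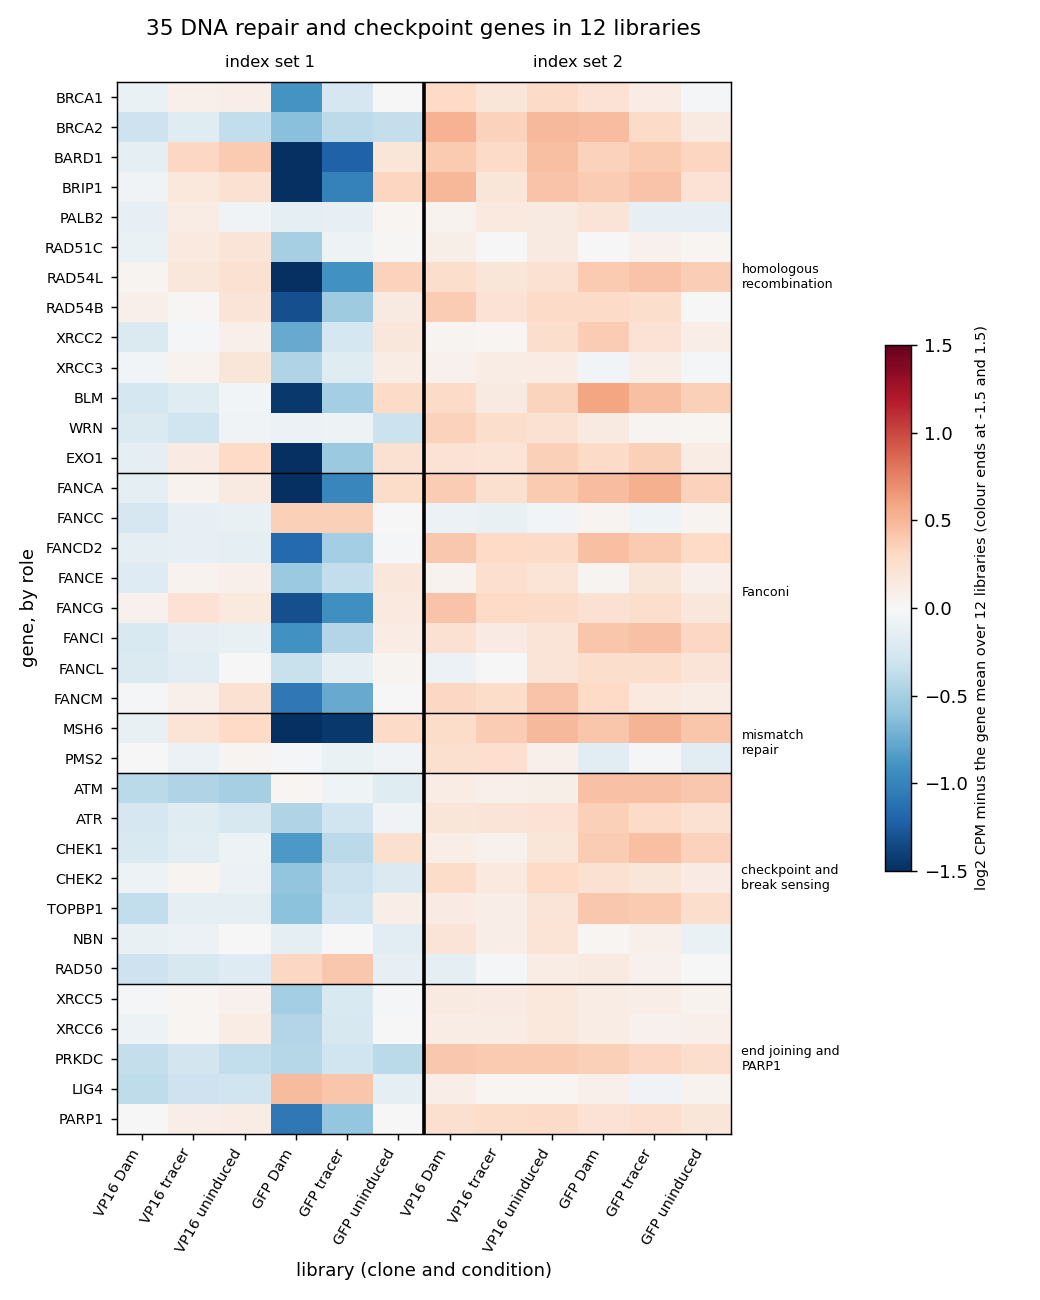
Level of each of the 35 genes (rows, by role) in each of the 12 libraries (columns, index set 1 and then index set 2), as log2 CPM minus the gene's mean over the libraries (Dam stands for tracer with Dam-LaminB1). Many rows are lowest in the set 1 libraries of the GFP clone with tracer and Dam-LaminB1 and with tracer, and the median over the genes there was -0.62 and -0.30.

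In the fit of all 12 libraries, induction of the tracer, with or without Dam-LaminB1, changed none of the 35 genes past the threshold in either clone. The same fit blocked by index set, which pairs the libraries, also called none, while the 6 VP16 libraries alone with the block gave 3 genes, MSH6, EXO1 and XRCC2, described with the VP16 clone. In each of the 6 comparisons within a clone, edgeR's quasi-likelihood test called 0 of the 35 at a Benjamini-Hochberg adjusted p under 0.05, and it called 0% of all 17262 genes. DESeq2 and limma-voom called 0 of the 35 as well. At an unadjusted p under 0.05 edgeR still found 0 of the 35 in each of the 6. This fit leaves the difference between the index sets in the spread, and few genes of the whole table passed that rule. The count of 0 is thus no sign that the levels were alike. Of all genes in the GFP clone, that rule found 0.84% higher and 0.481% lower for tracer with Dam-LaminB1 against uninduced, 0.226% and 0.238% for tracer with Dam-LaminB1 against tracer, and 0.411% and 0.313% for tracer against uninduced. In the VP16 clone it found 0.84% and 0.255%, 0.156% and 0.151%, and 0.313% and 0.104% in the same order. In the GFP clone the genes' median difference was -0.22 on the log2 scale for tracer with Dam-LaminB1 against uninduced, -0.11 for tracer with Dam-LaminB1 against tracer, and -0.10 for tracer against uninduced. The VP16 clone had medians of -0.08, -0.02 and -0.06 in the same order of comparisons. All genes together had medians between -0.003 and 0.01. The test of whether the clones differed in their response called 0 of the 35 and 0% of all genes, both for the tracer and for Dam-LaminB1, and the genes' median VP16 minus GFP response was 0.03 and 0.07. At an unadjusted p under 0.05 the tracer response found 0 of the 35, against 0.301% of all genes higher and 0.243% lower, and the Dam-LaminB1 response 0, against 0.116% and 0.174%. For MSH6, the difference of tracer from uninduced in the GFP clone was -0.51 on the log2 scale (SE 0.684, edgeR adjusted p = 0.999), and a p that misses the threshold with an error of that size does not show that the levels were alike.

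Within index set 1 of the GFP clone, with 1 library of each condition and hence no test, much of the homologous recombination and Fanconi machinery was at a lower level after induction. MSH6, which reads mismatches, lies at chr2:48010221-48034092 in GRCh37 within a region that also lists FBXO11. It had 47.1, 55.9 and 187 CPM in the set 1 libraries with tracer and Dam-LaminB1, tracer, and no induction (the order used for 3 values of a clone throughout), against 204, 217 and 204 CPM in set 2. The VP16 clone had 142, 176 and 188 CPM of MSH6 in set 1 and 185, 198 and 214 CPM in set 2. Both induced set 1 libraries of the GFP clone thus lay below all 10 other libraries. The log2 difference from the uninduced library of set 1 was -1.99 with Dam-LaminB1 and -1.74 with tracer, while in set 2 it was 0.00 and 0.09.

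BARD1, the partner that BRCA1 needs to act as a ubiquitin ligase, was low in the same 2 libraries. Its levels were 6.47, 9.32 and 24.5 CPM in the GFP clone of set 1 against 27.4, 28.4 and 27.0 CPM in set 2, and 19.7, 26.7 and 28.2 CPM in the VP16 clone of set 1 against 28.2, 26.4 and 29.4 CPM in set 2. RAD54L, a motor protein that drives strand invasion, had 10.3, 18.4 and 43.7 CPM in the GFP clone of set 1 and 45.0, 46.4 and 44.3 CPM in set 2. FANCA, a subunit of the Fanconi core complex, had 14.8, 24.2 and 57.6 CPM in the GFP clone of set 1 and 65.7, 69.4 and 60.5 CPM in set 2. These 2 genes were lower with Dam-LaminB1 than with tracer alone in set 1, while in set 2 the 3 conditions of each lay close together. BARD1, RAD54L and FANCA were chosen after their values were seen.

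Counted over the list, tracer with Dam-LaminB1 against uninduced in set 1 of the GFP clone left 18 of the 35 genes lower by more than 1.5-fold (51.4%), against 15.3% of all genes, and 1 higher, LIG4, the ligase of end joining, at 0.61 (2.86%, against 19.3% of all genes). Tracer against uninduced left 11 lower (31.4%, against 12.4% of all genes): BARD1, BRIP1, RAD54L, RAD54B, BLM, EXO1, FANCA, FANCG, FANCM, MSH6 and CHEK1. A further difference of more than 1.5-fold between tracer with Dam-LaminB1 and tracer was found in 8 (22.9%, against 4.46% of all genes), namely BRCA1, BRIP1, RAD54L, RAD54B, BLM, EXO1, FANCA and FANCD2, all lower. By role, with 1 library against 1 and no test, the median of tracer with Dam-LaminB1 minus uninduced was -1.04 in the Fanconi genes, -0.93 in the homologous recombination genes, -0.44 in the end joining genes with PARP1 and -0.38 in the checkpoint and break sensing genes. The pair of mismatch repair genes lay apart, with MSH6 at -1.99 and PMS2 at 0.04. Several genes were close to level in that pair of libraries, with ATM at 0.21, PRKDC at -0.03, NBN at 0.04 and WRN at 0.24.

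Index set 2 of the GFP clone did not show these differences. For tracer with Dam-LaminB1 against uninduced, 0 of the 35 genes passed 1.5-fold there, against 3.13% of all genes higher and 4.29% lower, and their median was 0.11, against -0.72 in set 1. The VP16 clone likewise had 0 of the 35 past 1.5-fold for that pair of conditions. In its set 1 the median was -0.15, and 8.37% of all genes were higher and 3.52% lower, while in its set 2 the median was -0.04, and 5.25% were higher and 3.82% lower. A fit of just the 6 VP16 libraries, blocked by index set and chosen after the data were seen, called 3 of the 35 lower with tracer and Dam-LaminB1 than uninduced (8.57%, against 4.17% of all genes). They were MSH6 at -0.30 (SE 0.0487, edgeR adjusted p = 0.000495), EXO1, a nuclease of break resection and mismatch repair, at -0.27 (adjusted p = 0.01), and XRCC2, a gene of strand exchange, at -0.25 (adjusted p = 0.0263). Within the sets MSH6 changed by -0.41 in set 1 and -0.21 in set 2. The same fit called 22 of 30 genes of the G1/S step of the cell cycle lower, with a median of -0.25. Of 30 G2/M genes it called 8 lower, and of 91 further repair genes 2 higher and 7 lower. These lists are described below.

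**Figure D2:**
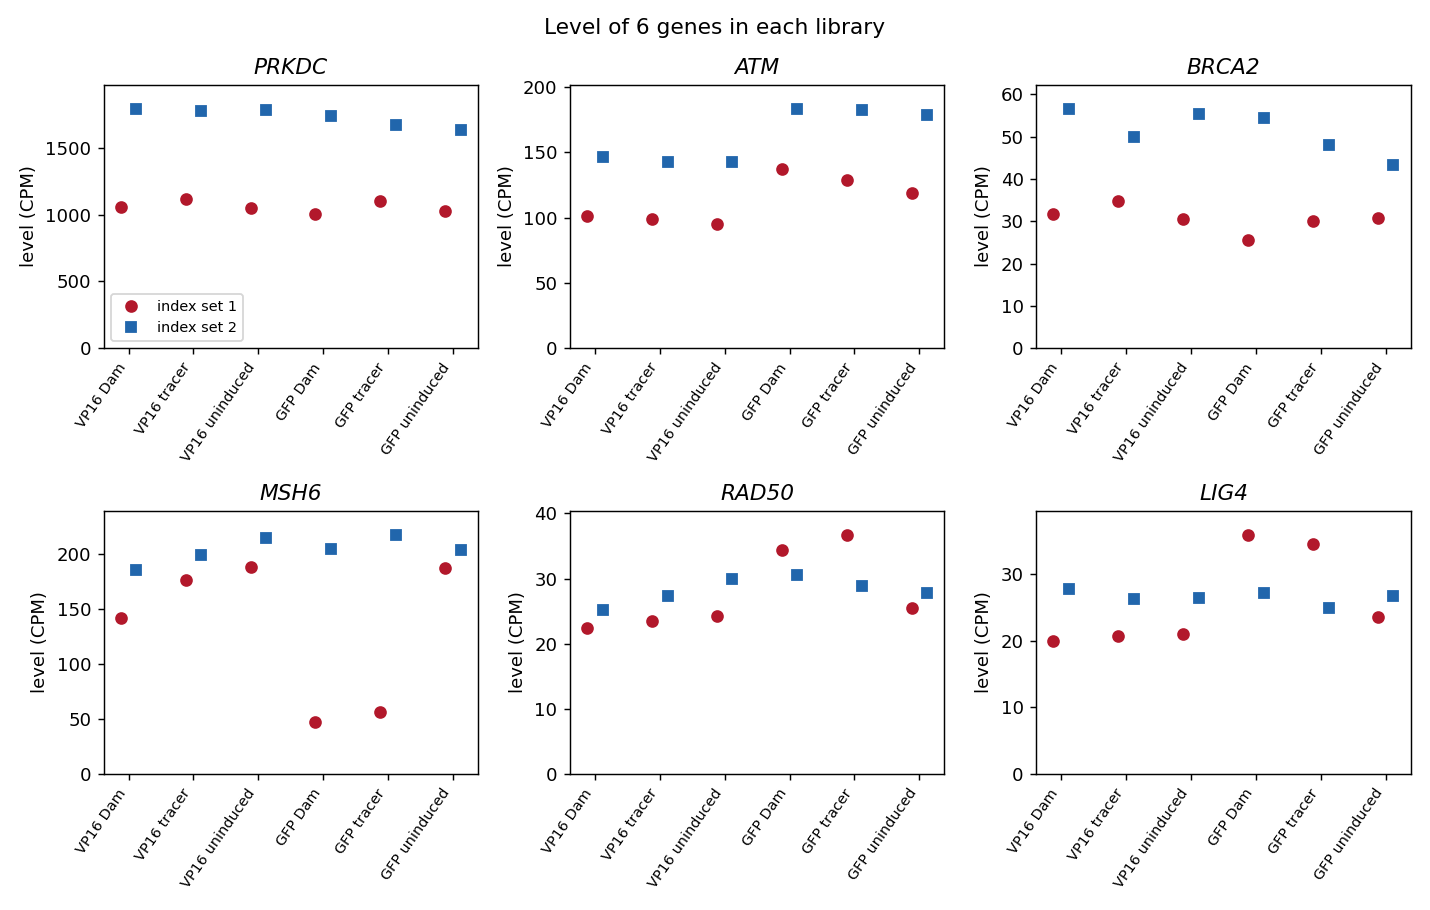
CPM of PRKDC, ATM, BRCA2, MSH6, RAD50 and LIG4 in each of the 12 libraries, 1 point per library, by clone, condition (Dam stands for tracer with Dam-LaminB1) and index set. PRKDC and ATM are lower in set 1 under every condition, while MSH6 is low, and RAD50 and LIG4 are high, in the 2 induced set 1 libraries of the GFP clone.

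Most calls in these genes came from the index sets, a contrast of 6 libraries with 6 of the same groups. With the group held constant, edgeR called 12 of the 35 genes lower in set 1 at an adjusted p under 0.05 (34.3%, against 12.6% of all genes), and 0 higher, against 15.6% of all genes. DESeq2 called 20 and limma-voom 12. At an unadjusted p under 0.05, 24 were lower, against 19.7% of all genes, and 0 higher, against 22.2%. The median over the 35 was -0.48 on the log2 scale, against 0.01 over all genes, and 34 of the 35 differences were negative. For 9 of them all 6 libraries of set 1 lay below all 6 of set 2 (25.7%, against 7.22% of all genes), and 20 were lower in set 1 in each of the 6 groups (57.1%, against 16.5% of all genes). Without the 2 libraries that stood apart, 23 were called lower and 0 higher (65.7%, against 20.3% of all genes).

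Of the 7 checkpoint and break sensing genes, 6 were lower in set 1 and RAD50 was not called. ATM, the kinase that answers double-strand breaks, lies at chr11:108093211-108239829 in GRCh37, the build of all gene positions from here on. In the VP16 clone ATM had 101, 98.6 and 95.4 CPM in set 1 against 146, 142 and 143 CPM in set 2. The GFP clone had 137, 129 and 119 CPM of ATM in set 1 against 183, 183 and 178 CPM in set 2, so the highest library of set 1 stayed below the lowest of set 2. The set 1 minus set 2 difference was -0.52 on the log2 scale (SE 0.0444, edgeR adjusted p = 0.000378). It was about as large in each clone, -0.50 in the GFP clone and -0.55 in the VP16 clone, and it was -0.56 without the 2 libraries that stood apart.

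ATR, the kinase for stalled replication, at chr3:142168077-142297668, had 97.3, 103 and 98.1 CPM in the VP16 clone of set 1 and 85.3, 94.6 and 112 CPM in the GFP clone of set 1. In set 2 the VP16 clone had 131, 133 and 135 CPM and the GFP clone 149, 142 and 136 CPM. The sets did not overlap, and they differed by -0.49 on the log2 scale (SE 0.0716, edgeR adjusted p = 0.00264). CHEK2, the kinase downstream of ATM, at chr22:29083731-29138410, had 13.7, 14.9 and 13.6 CPM in the VP16 clone and 9.57, 11.6 and 12.5 CPM in the GFP clone of set 1, against 17.6, 16.1 and 17.8 CPM and 16.99, 16.4 and 15.7 CPM in set 2. Its sets did not overlap either, with a difference of -0.42 on the log2 scale (SE 0.097, edgeR adjusted p = 0.0165). Leaving out the 2 libraries that stood apart, ATR differed by -0.39 and CHEK2 by -0.30.

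TOPBP1, which switches ATR on, at chr3:133317019-133380737, had 137, 159 and 159 CPM in the VP16 clone and 115, 143 and 189 CPM in the GFP clone of set 1. Set 2 had 193, 188 and 201 CPM of it in the VP16 clone and 234, 232 and 213 CPM in the GFP clone. The uninduced GFP library of set 1 overlapped set 2, and the difference was -0.49 on the log2 scale (SE 0.111, edgeR adjusted p = 0.015). CHEK1, the kinase downstream of ATR, at chr11:125495036-125546150, had 34.6, 36.2 and 38.4 CPM in the VP16 clone and 22.2, 30.7 and 47.8 CPM in the GFP clone of set 1. It had 43.4, 42.3 and 45.8 CPM and 52.6, 55.2 and 51.3 CPM in the same clones of set 2. Again the uninduced GFP library of set 1 reached into the range of set 2, and the difference was -0.50 on the log2 scale (SE 0.152, edgeR adjusted p = 0.0439). It was -0.32 for TOPBP1 and -0.23 for CHEK1 without the 2 libraries that stood apart, both still called. NBN, which tethers ATM to broken ends, had a smaller difference of -0.17 on the log2 scale (SE 0.0483, edgeR adjusted p = 0.034), and of -0.20 without those 2 libraries.

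RAD50, the tethering subunit that works with NBN, followed another pattern. At chr5:131891711-131980313, in a region that also lists IL5, it had 34.4, 36.8 and 25.4 CPM in the GFP clone of set 1 against 30.5, 28.9 and 27.7 CPM in set 2. The VP16 clone had 22.4, 23.5 and 24.2 CPM of RAD50 in set 1 against 25.2, 27.3 and 30.0 CPM in set 2. The 2 induced set 1 libraries of the GFP clone were the highest of the 12, and all 3 VP16 libraries of set 1 lay below all 3 of set 2. Over both clones the difference was -0.05 on the log2 scale (SE 0.0968, edgeR adjusted p = 0.729). Without the 2 libraries that stood apart it was -0.21 (edgeR adjusted p = 0.00865), so these 2 libraries decide its call.

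Among the end joining genes 1 of 5 was called, and it had the largest number of counts of the 35. PRKDC on chromosome 8, whose product is the kinase that binds Ku on broken ends, had 1062, 1121 and 1052 CPM in the VP16 clone of set 1 against 1797, 1779 and 1786 CPM in set 2. The GFP clone had 1006, 1104 and 1027 CPM of PRKDC in set 1 against 1742, 1677 and 1635 CPM in set 2. Within a set the 6 libraries lay close together whatever the clone or condition, and the sets were well apart. The difference was -0.71 on the log2 scale (SE 0.043, edgeR adjusted p = 0.00012), with -0.69 in the GFP clone, -0.73 in the VP16 clone, and -0.72 without the 2 libraries that stood apart.

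The other end joining genes did not share that size. XRCC5 and XRCC6, the partners of PRKDC on the DNA end, had 495, 694 and 734 CPM and 339, 448 and 496 CPM as their lowest, median and highest levels in set 1. In set 2 they had 731, 764 and 787 CPM and 482, 496 and 512 CPM. Their differences were -0.23 and -0.21 (edgeR adjusted p = 0.0589 and 0.0643), and without the 2 libraries that stood apart they were smaller and called, at -0.11 and -0.10 (edgeR adjusted p = 0.0113 and 0.0268). LIG4, which seals the ends, at chr13:108859794-108870716, had 36.0, 34.5 and 23.5 CPM in the GFP clone of set 1 against 27.2, 24.9 and 26.8 CPM in set 2. In the VP16 clone LIG4 had 19.9, 20.8 and 21.0 CPM in set 1 against 27.8, 26.3 and 26.4 CPM in set 2. Like RAD50 it was highest in the 2 induced set 1 libraries of the GFP clone and lower in set 1 than in set 2 in each of the other pairs. Its difference was -0.08 on the log2 scale (SE 0.143, edgeR adjusted p = 0.717) over all 12 libraries, and -0.34 (edgeR adjusted p = 0.000516) without those 2.

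PARP1 had 337, 362 and 364 CPM in the VP16 clone and 161, 227 and 338 CPM in the GFP clone of set 1, and 398, 409 and 414 CPM and 392, 403 and 383 CPM in the same clones of set 2. Its sets did not overlap, but the 2 induced GFP libraries of set 1 lay far below the other 4 of that set, and the difference of -0.48 on the log2 scale (SE 0.156, edgeR adjusted p = 0.0532) missed the threshold over both clones. Without those 2 libraries it was -0.20 (edgeR adjusted p = 0.000225).

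In homologous recombination 2 of 13 genes were called. BRCA2, which acts on single-stranded DNA at resected breaks, at chr13:32889611-32973805, had 31.7, 34.9 and 30.6 CPM in the VP16 clone and 25.5, 30.1 and 30.8 CPM in the GFP clone of set 1. Its levels in set 2 were 56.6, 50.0 and 55.4 CPM in the VP16 clone and 54.4, 48.0 and 43.3 CPM in the GFP clone. All 6 libraries of set 1 lay below all 6 of set 2, and the difference was -0.74 on the log2 scale (SE 0.0875, edgeR adjusted p = 0.00113). It was -0.68 without the 2 libraries that stood apart. WRN on chromosome 8, a helicase that resolves unusual structures at forks, had 22.4, 21.1 and 25.1 CPM in the VP16 clone and 24.5, 24.6 and 20.7 CPM in the GFP clone of set 1. Its set 2 levels were 33.2, 31.1 and 30.4 CPM and 28.6, 26.8 and 26.6 CPM in the same clones. These sets did not overlap, with a difference of -0.35 on the log2 scale (SE 0.078, edgeR adjusted p = 0.014), or -0.45 without those 2 libraries.

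RAD51C and XRCC3 had smaller differences. RAD51C, at chr17:56769934-56811703, had 33.4, 39.6 and 41.0 CPM in the VP16 clone and 25.5, 34.1 and 36.3 CPM in the GFP clone of set 1. It had 38.0, 36.0 and 39.3 CPM and 36.1, 37.4 and 36.6 CPM in the same clones of set 2. Only the GFP library of set 1 with tracer and Dam-LaminB1 stood clear of the rest, at the bottom, and the set difference was -0.11 on the log2 scale (SE 0.0881, edgeR adjusted p = 0.398). XRCC3, at chr14:104163946-104181841 in a region that also lists KLC1, had 53.9, 57.6 and 62.7 CPM in the VP16 clone and 40.4, 48.6 and 59.9 CPM in the GFP clone of set 1. Set 2 had 58.0, 59.9 and 59.7 CPM of XRCC3 in the VP16 clone and 53.5, 59.2 and 54.5 CPM in the GFP clone. Its difference was -0.11 on the log2 scale (SE 0.0801, edgeR adjusted p = 0.342), with the same GFP library lowest. Both were close to level without the 2 libraries that stood apart, RAD51C at -0.01 and XRCC3 at 0.01. The other 9 genes of this role had differences of -0.10 (PALB2, the bridge between BRCA1 and BRCA2) to -0.70 (BLM, a helicase that dissolves joined chromosomes), none of them called. Without those 2 libraries they ran from -0.07 to -0.33, and BLM (edgeR adjusted p = 0.00239) and BRCA1 at -0.17 (edgeR adjusted p = 0.0388) were called.

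Of the 8 Fanconi genes 3 were lower in set 1. FANCD2, a subunit of the clamp at crosslinks that is switched on by ubiquitin, at chr3:10068098-10143614, had 45.5, 46.2 and 45.2 CPM in the VP16 clone and 22.5, 35.2 and 49.1 CPM in the GFP clone of set 1. Set 2 held it at 66.3, 61.8 and 61.2 CPM in the VP16 clone and 68.8, 66.2 and 61.7 CPM in the GFP clone. Every library of set 1 was below every library of set 2, and the difference was -0.70 on the log2 scale (SE 0.164, edgeR adjusted p = 0.0172). FANCI, its partner, at chr15:89787180-89860492 beside POLG, had 90.5, 95.8 and 98.4 CPM in the VP16 clone and 56.3, 78.6 and 115 CPM in the GFP clone of set 1. Its set 2 levels were 124, 116 and 121 CPM and 142, 144 and 132 CPM in the same clones. Both partners were lowest in the GFP library with tracer and Dam-LaminB1, and FANCI differed by -0.57 on the log2 scale (SE 0.15, edgeR adjusted p = 0.0263). FANCL, the ubiquitin ligase that modifies the clamp, differed by -0.28 on the log2 scale (SE 0.0826, edgeR adjusted p = 0.0405). All 3 were smaller, and still called, without the 2 libraries that stood apart, with FANCD2 at -0.44, FANCI at -0.31 and FANCL at -0.17.

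The remaining Fanconi genes were not called over both clones. FANCC, a core complex subunit at chr9:97861336-98079991, had 30.2, 30.1 and 23.5 CPM in the GFP clone of set 1 against 24.3, 22.6 and 24.2 CPM in set 2. The VP16 clone had 19.7, 21.6 and 21.9 CPM of FANCC in set 1 and 22.1, 21.8 and 23.0 CPM in set 2. It was the 1 gene of the 35 with a positive difference, 0.07 on the log2 scale (SE 0.0922, edgeR adjusted p = 0.578), and its 2 highest libraries were the induced set 1 libraries of the GFP clone, as for RAD50 and LIG4. Without them FANCC stood at -0.08 (edgeR adjusted p = 0.304), on the other side of 0. FANCE, another core subunit, at chr6:35420138-35434880, had 15.4, 18.2 and 18.6 CPM in the VP16 clone and 11.9, 13.6 and 19.8 CPM in the GFP clone of set 1. In set 2 it had 18.3, 21.0 and 20.4 CPM and 18.1, 20.01 and 18.6 CPM in the same clones. Its difference was -0.27 on the log2 scale (SE 0.102, edgeR adjusted p = 0.079), and FANCA, FANCG and FANCM had differences of -0.76, -0.54 and -0.51 with adjusted p-values of 0.0771, 0.0961 and 0.0566. FANCE was at -0.13 and not called without the 2 libraries that stood apart, while FANCA at -0.27, FANCG at -0.15 and FANCM at -0.22 were called, with edgeR adjusted p-values of 0.00579, 0.0413 and 0.00724.

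Neither mismatch repair gene was called over both clones. MSH6 had 47.1, 159 and 188 CPM as its lowest, median and highest level in set 1, against 185, 204 and 217 CPM in set 2. The difference was -0.80 on the log2 scale (SE 0.317, edgeR adjusted p = 0.0931), with a spread set by the 2 low libraries, and it was -0.22 (edgeR adjusted p = 0.000751) without them. PMS2, which nicks DNA in mismatch repair, at chr7:6012870-6048756 and with named copies elsewhere that can share its reads, had 17.7, 16.7 and 18.2 CPM in the VP16 clone and 17.5, 16.6 and 17.04 CPM in the GFP clone of set 1. Its set 2 levels were 20.9, 21.1 and 18.6 CPM in the VP16 clone and 15.8, 17.6 and 15.7 CPM in the GFP clone. The VP16 libraries of set 1 lay below those of set 2, while the GFP libraries of the 2 sets overlapped. Over both clones PMS2 had a set difference of -0.07 on the log2 scale (SE 0.0838, edgeR adjusted p = 0.545), and of -0.13 (edgeR adjusted p = 0.186) without the 2 libraries that stood apart.

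**Figure D3:**
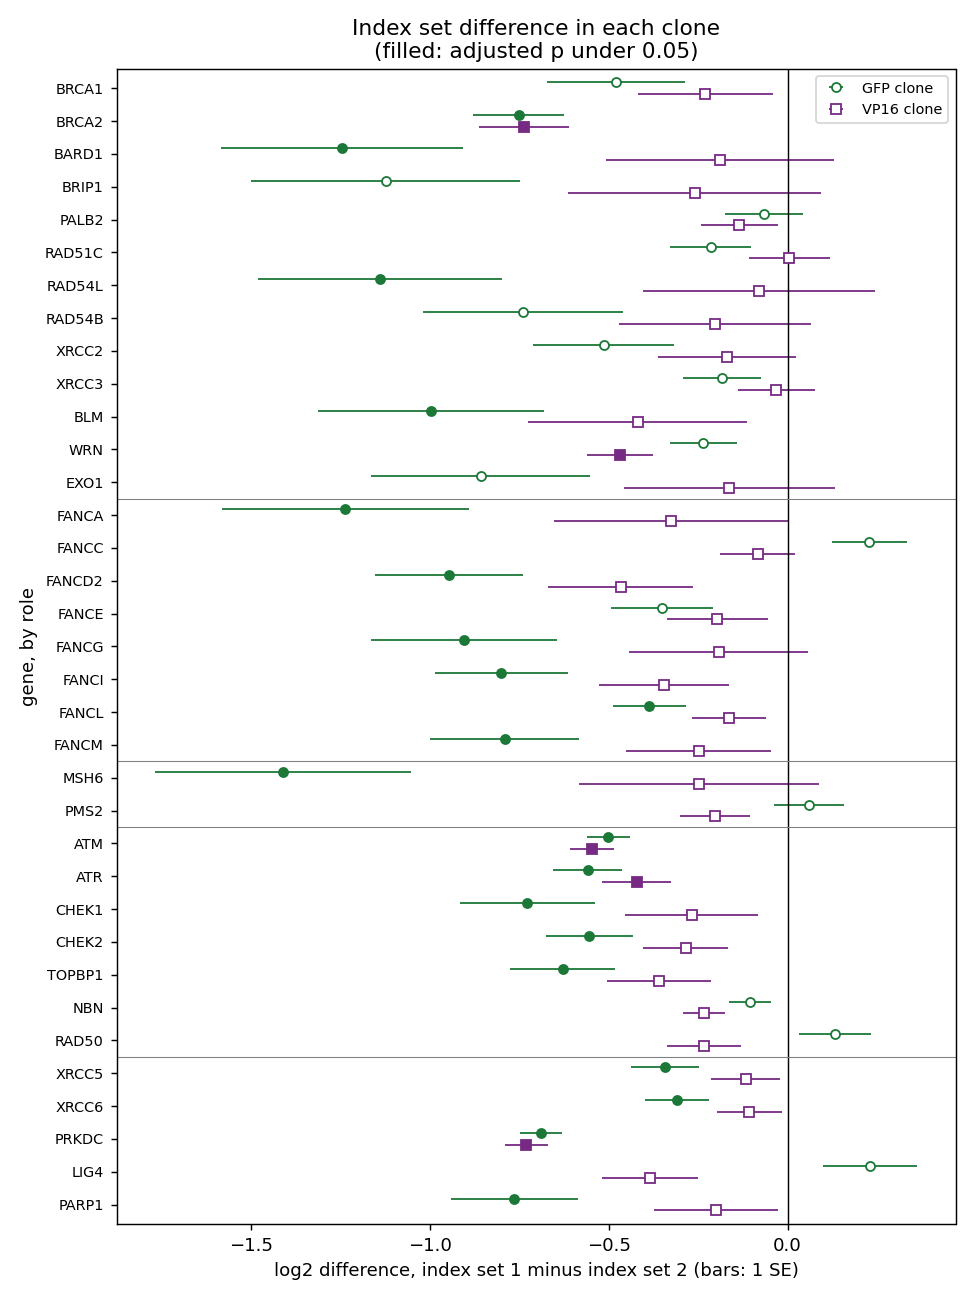
Log2 difference of index set 1 minus index set 2, with its SE, for each of the 35 genes in the GFP clone (circles) and in the VP16 clone (squares); filled symbols have an adjusted p under 0.05. In the GFP clone 20 genes are called, all lower, with MSH6 at -1.41 the lowest, and in the VP16 clone 5, of which BRCA2 at -0.74 and PRKDC at -0.73 are the lowest.

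By clone, the set difference was called in 20 of the 35 genes in the GFP clone, all lower (57.1%, against 16.5% of all genes), with 0 higher against 18.7% of all genes. The lowest were MSH6 at -1.41 (edgeR adjusted p = 0.0225), BARD1 at -1.25 (adjusted p = 0.028), FANCA at -1.24 (adjusted p = 0.0306) and RAD54L at -1.14 (adjusted p = 0.0378). Without the 2 libraries that stood apart, the GFP clone kept 1 pair of libraries across the sets, uninduced. That pair gives no spread of its own, so no calls are given for it. ATM then stood at -0.60 and BRCA2 at -0.50, while 9 of the 35 genes were higher in set 1. The 4 genes lowest with all libraries were MSH6 at -0.14, BARD1 at -0.15, FANCA at -0.08 and RAD54L at -0.03 in that pair. The genes' median in the GFP clone was -0.56 with these libraries and -0.09 without them. The number called in the GFP clone depended on which library was left out, for the 35 and for all genes alike. Leaving out 1 leaves its group with 1 library, so just the medians are given. The genes' median ran from -0.78 without the uninduced library of set 2 to -0.44 without GFP tracer with Dam-LaminB1 of set 1.

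In the VP16 clone 5 genes were lower in set 1 (14.3%, against 3.89% of all genes) and 0 were higher, against 5.52% of all genes. They were PRKDC at -0.73 (edgeR adjusted p = 0.00167), ATM at -0.55 (adjusted p = 0.00395), BRCA2 at -0.74 (adjusted p = 0.015), WRN at -0.47 (adjusted p = 0.0244) and ATR at -0.42 (adjusted p = 0.0375). Leaving out any 1 VP16 library left PRKDC as the called gene. Leaving out instead the 2 GFP libraries that stood apart, which also enter the estimate of spread, gave 29 called genes, all lower (82.9%, against 20.9% of all genes). The genes' median in the VP16 clone was -0.23.

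The difference between the clones in their set difference, GFP minus VP16, was not called for any of the 35 genes, and edgeR called 0% of all genes, while DESeq2 called 149 of all genes. At an unadjusted p under 0.05, LIG4 at 0.62 (SE 0.188) and RAD50 at 0.37 (SE 0.145) were higher (5.71%, against 10.1% of all genes) and MSH6 at -1.16 (SE 0.488) was lower (2.86%, against 8.09% of all genes). The genes' median of this difference was -0.25. With 1 library left out in turn it ran from -0.41, without the uninduced GFP library of set 2, to -0.10, without GFP tracer with Dam-LaminB1 of set 1. Leaving out the uninduced GFP library of either set made calls among the 35 and over all genes alike. It leaves 1 library in that group, so their counts are not given. PRKDC, ATM, BRCA2 and ATR were lower in set 1 in both clones and under all 3 conditions, and so were MSH6 and FANCA. MSH6, BARD1, RAD54L and FANCA had their lowest levels in the 2 libraries that stood apart, and so did BRCA2 and ATR.

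**Figure D4:**
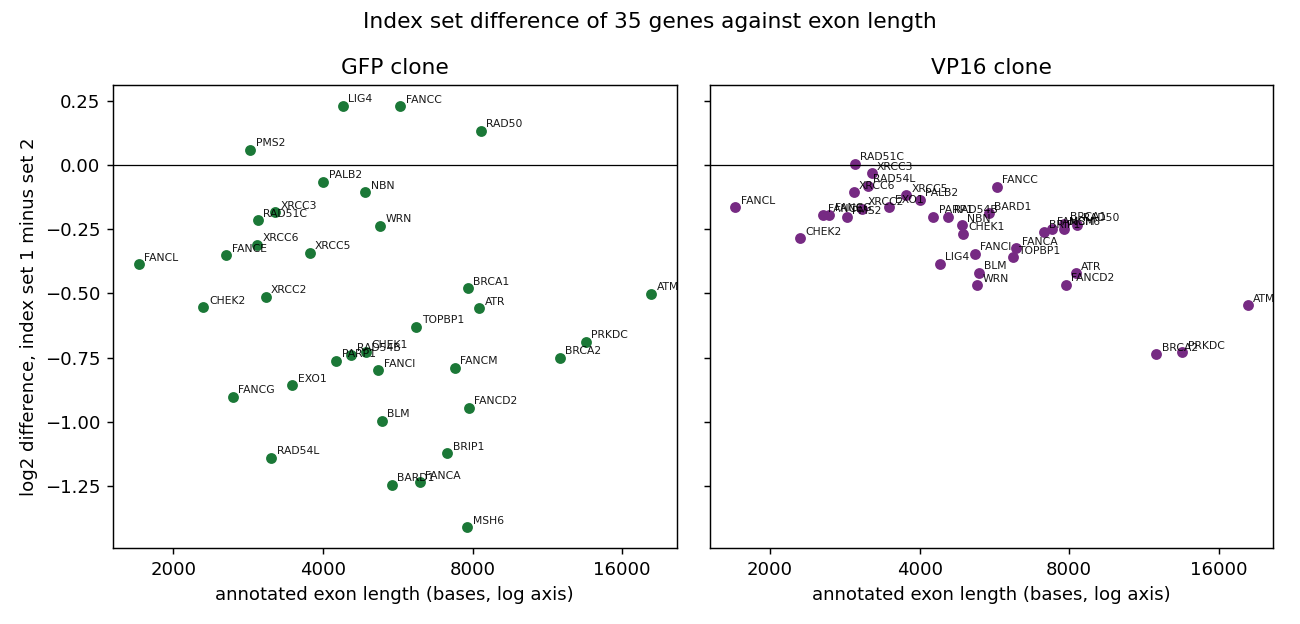
Log2 difference of index set 1 minus index set 2 against summed exon length in bases (log axis) for each of the 35 genes, in the GFP clone and in the VP16 clone. Longer genes have the lower differences in the VP16 clone, where PRKDC, ATM and BRCA2, the longest of them, lie at -0.73, -0.55 and -0.74.

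Over both clones, the median set difference was lower in longer genes. Of the 12 called genes 6 were among the 12 longest of the 35, 4 among the 11 in the middle and 2 among the 12 shortest. PRKDC, ATM and BRCA2 have exon lengths of 13509, 18299 and 11986 bases, while RAD51C, XRCC3 and PMS2 have 2960, 3202 and 2855 bases. With the 35 genes split by length into 12 short, 11 middle and 12 long ones, at 3842 and 6019 bases, the median set difference was -0.27 in the short, -0.46 in the middle and -0.60 in the long genes. All genes in the same classes had medians of 0.06, -0.02 and -0.12, so the order with length was there in the whole table too, at a smaller size. The Spearman correlation of set difference and length was -0.46 over the 35 genes and -0.17 over all 16618 genes with a length. In the VP16 clone it was -0.65 over the 35 and -0.21 over all, and in the GFP clone -0.25 and -0.12. The uninduced pair of GFP libraries, the 1 pair of that clone without a library that stood apart, had -0.47 and -0.15. The points share the same 12 libraries, so these are descriptions, and the part of length in the set difference was not tested.

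Between the clones, the number of called genes depended on the fit. Over all 12 libraries without a block, VP16 minus GFP over the mean of 3 conditions called 0 of the 35 by edgeR, DESeq2 or limma-voom, against 2.62% of all genes higher and 5.01% lower by edgeR, and the genes' median was 0.14. With each library left out in turn, that median ran from 0.03 to 0.24. It was lowest without GFP tracer with Dam-LaminB1 of set 1 and highest without that of set 2. Uninduced VP16 cells minus uninduced GFP cells also gave 0 of the 35 by all 3 tools with a median of 0.07, against 0.0753% of all genes higher and 0.203% lower. At an unadjusted p under 0.05 it gave 0 of the 35, against 2.39% of all genes higher and 5.07% lower. At an unadjusted p under 0.05 just RAD50 at -0.26 on the log2 scale (SE 0.102, edgeR adjusted p = 0.163) and FANCC at -0.25 on the log2 scale (SE 0.0997, edgeR adjusted p = 0.171) passed over the mean of conditions, both lower in the VP16 clone (5.71%, against 13.3% of all genes lower and 10.4% higher). ATM stood at -0.35 on the log2 scale (SE 0.186, edgeR adjusted p = 0.292). With the index set as a block it was -0.36 (adjusted p = 0.00164), the 1 gene of the 35 called in that fit (2.86%, against 11.9% of all genes lower). Within each set the uninduced VP16 library had less ATM than the uninduced GFP library, by -0.32 in set 1 and -0.32 in set 2.

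With the index set as a block and without the 2 libraries that stood apart, a fit chosen after the data were seen, 13 of the 35 were called between the clones. Higher in the VP16 clone were PMS2 at 0.21, WRN at 0.17 and NBN at 0.11 (8.57%, against 15.9% of all genes). Lower were 10 genes (28.6%, against 17.5% of all genes), led by ATM at -0.34 (edgeR adjusted p = 4.42e-06), CHEK1 at -0.33, BLM at -0.31, TOPBP1 at -0.28 and FANCI at -0.26. Of the checkpoint kinases, ATM, CHEK1 and ATR, the last at -0.14, were lower in the VP16 clone in these 10 libraries, and CHEK2 was not called, at 0.07 (edgeR adjusted p = 0.521). Between uninduced cells of the clones the same fit called 5 of the 35, NBN and FANCM higher in the VP16 clone (5.71%, against 9.02% of all genes) and FANCI, ATM and CHEK1 lower (8.57%, against 12% of all genes).

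Of 91 further repair genes, listed by pathway with earlier results of these data known, 3 were higher and 21 lower in set 1, against 15.6% of all genes higher and 12.6% lower, with a median of -0.22. Leaving out the 2 libraries that stood apart gave 5 higher and 36 lower, against 19.2% and 20.3% of all genes, with a median of -0.11. The 20 other genes of homologous recombination had 6 lower and a median of -0.33, the 8 other Fanconi genes 3 lower, the 6 other mismatch repair genes 2 lower and the 11 other end joining genes 4 lower. Of 19 genes of checkpoint signalling 1 was higher and 5 were lower. The 27 genes of base and nucleotide excision repair, which replace damaged single bases and short stretches, had 2 higher, 1 lower and a median of -0.04. With lists this short, these counts are descriptions to be read against the shares of all genes just given. The smallest p-values belonged to RECQL, a helicase, at -0.34 (SE 0.0639, edgeR adjusted p = 0.00741), PPM1D, a phosphatase that turns the checkpoint off, at 0.36 (SE 0.0725, edgeR adjusted p = 0.00922), TP53BP1, which steers breaks to end joining, at -0.28 (SE 0.0582, edgeR adjusted p = 0.0105), and FAN1, a crosslink nuclease, at -0.33 (SE 0.0722, edgeR adjusted p = 0.0137). In the GFP clone alone 6 of the 91 were higher and 32 lower, against 18.7% and 16.5% of all genes. The VP16 clone alone had 2 higher and 2 lower, against 5.52% and 3.89% of all genes.

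**Figure D5:**
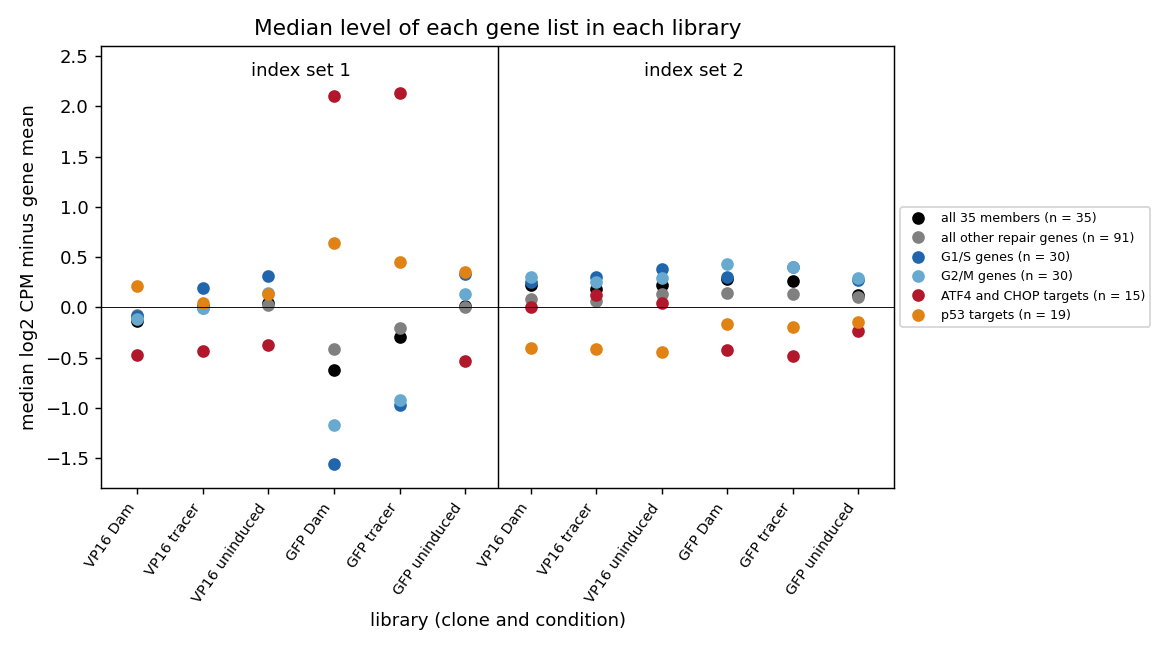
Median over each gene list of log2 CPM minus the gene's mean, in each of the 12 libraries, for the 35 genes, the 91 other repair genes, and the G1/S, G2/M, ATF4 and CHOP, and p53 target lists. In the GFP libraries of set 1 with tracer and Dam-LaminB1 and with tracer, the 35 genes stood at -0.62 and -0.30, the G1/S genes at -1.55 and -0.98, and the ATF4 and CHOP targets at 2.11 and 2.13.

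Lists of cell cycle and stress genes moved in the same libraries. The 30 G1/S genes, with MCM7, MCM4 and RRM2 the most abundant, had a median of -1.55 in the GFP library of set 1 with tracer and Dam-LaminB1 and -0.98 in that with tracer, against -0.09 to 0.41 in the other 10. The 30 G2/M genes, with MKI67, TOP2A and TPX2 the most abundant, had -1.17 and -0.92, and the 15 targets of the stress factors ATF4 and CHOP had 2.11 and 2.13. All 15 genes of that list were higher in both libraries than in the uninduced GFP library of set 1, by unlike amounts. PSAT1, an enzyme of serine synthesis, had 543 and 479 CPM in these libraries against 164.3 CPM in the uninduced one, and 164 to 307 CPM in the other 10. SHMT2, an enzyme of one-carbon metabolism, had 184 and 206.6 CPM against 171.5 CPM in the uninduced one, and 157 to 199.9 CPM in the other 10. MKI67, a proliferation marker, had 151, 200.5 and 591 CPM in the GFP clone of set 1 against 901, 938 and 872 CPM in set 2, and 482, 579 and 609 CPM in the VP16 clone of set 1 against 848, 865 and 922 CPM in set 2. It was thus lowest in the same 2 libraries as MSH6 and BARD1, and below set 2 in the other 4 libraries of set 1.

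Targets of p53, which is activated by the checkpoint kinases, were higher in set 1 in 15 of 19 genes (against 15.6% of all genes), with a median of 0.65, and in 13 of 19 in the VP16 clone alone (against 5.52%). CDKN1A, the inhibitor that holds the cell cycle in G1, had 490.0, 448 and 459 CPM in the VP16 clone and 511, 415 and 428 CPM in the GFP clone of set 1. In set 2 it had 176, 168 and 153 CPM and 161, 149.9 and 167 CPM in the same clones, and the sets did not overlap. CDKN1A was thus high in all 6 libraries of set 1, as PRKDC and ATM were low in all 6. In the set comparison over both clones 4 of the 30 G1/S genes and 12 of the 30 G2/M genes were lower, against 12.6% of all genes, and 1 of the 15 ATF4 and CHOP targets was higher, against 15.6% of all genes. With the 2 libraries that stood apart left out, 12 G1/S genes and 23 G2/M genes were lower, against 20.3% of all genes, and all 19 p53 targets were higher, against 19.2%. The ATF4 and CHOP targets then had 4 higher and 9 lower, with a median of -0.33 against 0.18 with them. The part of the cell cycle, of stress or of p53 in the differences of the 35 genes was not tested.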

How the data were processed

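Per the labels' protocols, a TruSeq kit was used on total RNA from a Trizol extraction. TopHat 1.4.0, Bowtie 0.12.7, HTSeq and GRCh37 are named in the submitters' processing notes, without the strand setting. The authors deposited raw counts per gene with gene positions, in 1 table of 12 libraries. Counts were fitted with edgeR 4.0.16 in R 4.3.3 (quasi-likelihood test, TMM factors 0.979 to 1.022, filterByExpr, 17262 genes), and p-values were adjusted by Benjamini-Hochberg over all of them. The 6 groups left 6 residual degrees of freedom, the set comparison 5, and the set comparison by clone 4. The fit of the VP16 libraries alone with the block left fewer still, so its errors lean on the spread shared over genes. Standard errors are the log2 difference divided by the square root of F. CPM uses TMM-scaled totals, log2 CPM adds a prior count of 2, and exon lengths come from GENCODE on GRCh38. DESeq2 1.42.0, limma 3.58.1, no filter, the index set as a block, and leaving out each library were tried as alternatives.

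In all 15 pairs of groups, deviations from the group means were correlated between libraries of a set (0.41 to 0.86), so the sets pair the libraries. No replicates agreed within counting noise (chi-square per degree of freedom at least 20.4). The members, gene lists and tests were chosen with earlier results of these data known. Genes with values in all libraries were those with the 12 smallest adjusted p-values and, per role, the smallest p by comparison. BRIP1, FANCG, EXO1, XRCC2, BLM and others named outside that rule were chosen after their values were seen. The script was tested on simulated data.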

Additional observations from a re-analysis of the deposited data

Results flagged for a closer look

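RAD50, the break-tethering subunit, had changes of opposite sign in the clones. With tracer against uninduced it was higher in both GFP libraries and lower in both VP16 libraries than in the uninduced library of the same set, and the mean log2 change in the VP16 clone minus that in the GFP clone was -0.38. In the GFP clone the change was 0.53 in set 1, where the tracer library stood apart from the rest, and 0.06 in set 2, and the GFP difference over both sets was 0.12 without that library, against 0.30 with it. The test of this difference in response was not called (edgeR adjusted p = 1). With tracer and Dam-LaminB1 against uninduced the same split gave -0.46, and this difference was not tested. There the GFP change was 0.43 in set 1, again with a library that stood apart, and 0.14 in set 2.

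FANCC, the Fanconi core subunit, was split in the same way with tracer and Dam-LaminB1 against uninduced, higher in both GFP libraries and lower in both VP16 libraries, with a VP16 minus GFP mean log2 change of -0.29, which was not tested. The GFP change was 0.36 in set 1, whose library with tracer and Dam-LaminB1 stood apart, and 0.0089 in set 2, so the split rests on a set 2 difference near 0.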

How the results depend on the processing

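Of the per-gene results taken through each alternative, 3 changed sign, each when 1 library that stood apart was left out: without GFP tracer of set 1, tracer minus uninduced was 0.16 for MSH6 and -0.014 for LIG4, and without GFP tracer with Dam-LaminB1 of set 1, the difference from tracer was 0.032 for RAD51C. The set differences of FANCC and XRCC3 changed sign without both libraries, to -0.08 and 0.01. Over the libraries left out in turn these ranged from -1.83 for MSH6, up to 0.43 for LIG4 and from -0.51 for RAD51C. DESeq2 called 20 genes between the sets, and with no filter but 1 count 10 were called in the GFP clone. Without the 2 libraries that stood apart, an alternative added after the data were seen, 23 genes were called between the sets and 29 in the VP16 clone. The median set difference was then -0.093 in the GFP clone, from 1 pair of libraries. The median of the GFP minus VP16 difference in the set difference was 0.14, against -0.25 with all 12 libraries. With the block and without those 2 libraries, 13 were called between clones and 5 between uninduced clones. The index set as replicate block called 1 gene between clones, ATM, and changed no other member's call, while the VP16 libraries alone with the block gave 3. Leaving out each library in turn gave 8 to 12 genes between the sets, 3 to 33 in the GFP clone, 1 in the VP16 clone, 0 to 27 for the difference between clones in the set difference, and 0 to 3 between clones. It moved the median of GFP tracer with Dam-LaminB1 minus tracer over -0.64 to 0.33, minus uninduced over -0.72 to 0.16, and that of the VP16 minus GFP Dam-LaminB1 response over -0.35 to 0.65. The cause was not tested.

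Over all genes, calls between uninduced clones were 48, and 288 by DESeq2, 220 without the filter, 327 with the block and 3685 with the block and without the 2 libraries. Between clones they were 1318, and 2201 by DESeq2, 3609 with the block and 5855 without the 2 libraries. In the VP16 clone they were 1624 between the sets, and 7176 without the 2 libraries. For the difference between clones in the set difference they were 0, and 149 by DESeq2 and 117 without the filter. The VP16 libraries alone with the block gave 139, 13 and 1573 calls for tracer against uninduced, tracer with Dam-LaminB1 against tracer, and tracer with Dam-LaminB1 against uninduced, each against 0. With at least 146 counts per gene and library, the spread between libraries limits these results more than counting does.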

Other observations

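Between the clones, 7 of the 91 other repair genes differed over the mean of 3 conditions, 2 higher and 5 lower in the VP16 clone, against 2.62% of all genes higher and 5.01% lower, so these counts lie close to the share of all genes. ERCC6, which restarts transcription at damaged bases, was higher in the VP16 clone, at 0.72 on the log2 scale (SE 0.0936, edgeR adjusted p = 0.00375), with 25.7, 16.5 and 17.4 CPM in set 1 and 19.7, 17.6 and 19.1 CPM in set 2 of the VP16 clone, and 13.0, 11.0 and 11.3 CPM and 11.8, 10.9 and 12.1 CPM in the GFP clone. APLF, an end joining scaffold, was lower, at -1.36 (SE 0.218, edgeR adjusted p = 0.00871), with 1.57, 1.42 and 1.20 CPM and 1.59, 1.33 and 0.957 CPM in the VP16 clone and 5.21, 4.96 and 2.04 CPM and 2.99, 2.83 and 2.91 CPM in the GFP clone. FANCF, an adaptor of the Fanconi core complex, was lower, at -0.71 (SE 0.128, edgeR adjusted p = 0.014), and DDB1, a subunit of the sensor of ultraviolet lesions, was lower, at -0.29 (SE 0.0578, edgeR adjusted p = 0.02). Both clones were single clones, so these differences and the construct each clone carries cannot be told apart.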
